A study of Homo sapiens with 9 samples.

Results

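GABA, glutamate, glycine and serotonin are transmitters whose receptors make up 55 of the 11963 genes named on the arrays of this series. The 55 genes were those with a symbol of the GABR, GABBR, GRIA, GRIK, GRIN, GRM, GLRA, GLRB and HTR families on a probe set (a group of short probes for one transcript) with a single gene symbol. They had 86 probe sets, and each gene was read by its brightest one over the 9 arrays. All 55 symbols matched RefSeq by their Entrez identifier, and 1 of them, HTR7P1, is a pseudogene. The samples were total RNA described as from IMR32, a human neuroblastoma cell line with neuron-like properties. Each group had 3 biological replicates with 1 array each. The 69CHAT group stably expressed the smaller form of choline acetyltransferase (ChAT), the enzyme that makes acetylcholine, the 82CHAT group stably expressed the larger form, and the WT group was wild type. As each form came in a separate stable line, the form and the line that carries it cannot be told apart, and the labels name no vector, promoter or clone.

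GABA-A receptors, ionotropic glutamate receptors (AMPA, kainate and NMDA types), glycine receptors and the serotonin-gated channel are ion channels built from several subunits, so the subunits a cell makes set which channels it can assemble. GABA-B, metabotropic glutamate and most serotonin receptors act through G proteins. GABA and glycine channels mostly carry chloride, glutamate and serotonin channels mostly carry cations, and sympathetic neurons, from whose lineage neuroblastoma arises, are known for nicotinic and serotonin-gated channels.

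The group labels were checked first. CHAT read 256, 175 and 177 on the 69CHAT arrays, 1066, 423 and 1067 on the 82CHAT arrays, and 148, 125 and 114 on the WT arrays, and whether its 1 probe set reads the transgenes is not known here. Of 11 measured sympathoadrenal markers, 7 were higher and 0 lower in each line than in WT. Their summed intensity was 10350 to 15870 on the 69CHAT arrays, 12450 to 18470 on the 82CHAT arrays and 1626 to 1846 on the WT arrays. MYCN, which IMR32 carries amplified, read 4181 to 6118 in the lines and 62.5 to 120.5 in WT. Of 8 epithelial markers, 6 were lower and 0 higher in each line, with sums of 376.8 to 439.1, 390.7 to 458.3 and 5566 to 6306 in the same order. The WT arrays go against their IMR32 label on these markers, so each comparison with them below is a difference from the arrays labelled WT, in which ChAT and this marker difference cannot be told apart. The part of this marker difference in the receptor results was not tested. In such bulk samples fewer cells of a type and less RNA per cell cannot be told apart.

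Most of the receptor genes differed little between the groups. In 69CHAT against WT, 4 of the 55 genes were higher (GABRA5, GRIK2, GRM2 and HTR3A) and 1 was lower (GLRB) at an adjusted p under 0.05 (limma, Benjamini-Hochberg over 22215 probe sets). Over all named genes, read by their brightest probe sets, 11.7% were higher and 17.7% lower, 29.4% in all, against 9.09% of the receptor genes. In 82CHAT against WT the same 4 genes and GABRA3 were higher, 5 of 55, and GLRB was again lower, 10.9% of the receptor genes in all. The shares over all named genes there were 11.8% higher and 18.5% lower, 30.3% in all. The comparisons share the WT arrays. The median log2 difference of the receptor genes was 0.14 and 0.13, beside 0.05 over all named genes in both comparisons. The difference was above 0 for 89.1% and 85.5% of the receptor genes, beside 57.4% and 57.1% of all named genes. The 3 arrays of the line and the 3 of WT did not overlap for 22 receptor genes in 69CHAT and 14 in 82CHAT, where 47.2% and 45.7% of all named genes did not. With the replicate number as a block, a choice that mainly takes up how replicate 1 stands apart from replicates 2 and 3, 8 receptor genes were higher and 2 lower in 69CHAT (17.4% and 22.9% of all named genes), and 12 were higher and 2 lower in 82CHAT (18.3% and 23.6%). In replicates 2 and 3 alone the counts were 10 higher and 1 lower in 69CHAT (19.6% and 23.9% of all named genes), and 9 and 2 in 82CHAT (20.2% and 23.8%).

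**Figure D1:**
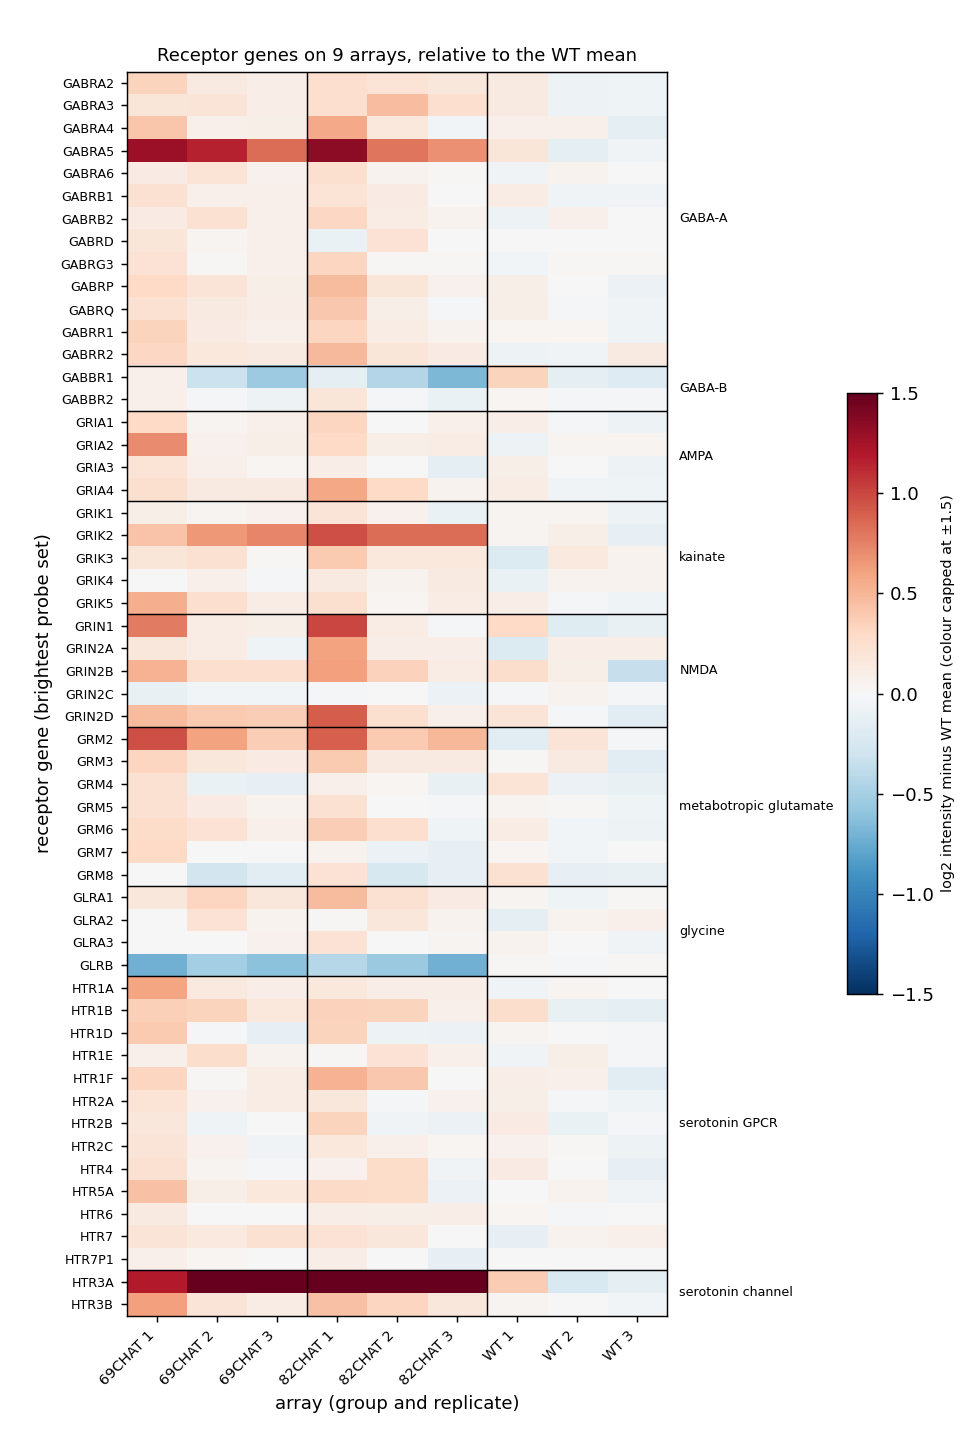
Each row is a receptor gene and each column an array, and the colour is the log2 intensity minus the mean of the 3 WT arrays. HTR3A, GABRA5, GRIK2 and GRM2 are red on all 6 arrays of the lines, GLRB is blue on them, and most other rows are pale.

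Many of the receptor probe sets were dim. The deposited table holds no detection calls, so 55.9, the lowest lower quartile of any array, serves here as the line for near-background signal. Of the 55 genes, 18 read below it on all 9 arrays, 27 read above it on all 9, and 10 lay on both sides. Of all 11963 named genes, 1434 read below it on all 9 arrays, a smaller share. Over all named genes, 5.58% of those under the line on all 9 arrays passed in 69CHAT against WT and 6.49% in 82CHAT against WT, and 32.6% and 33.6% of the rest did. Of the 18 dim receptor genes only GABRA3 passed, in 82CHAT. Among the 50 genes that did not pass in 69CHAT against WT, the 95% confidence interval stayed inside a 2-fold difference for all 50. In 82CHAT it did for 48 of 49, and the exception was GRIN1. For genes at background an interval covers the spread of the signal only, so a change in a transcript below detection would not be seen.

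The GABA-A list held 13 subunit genes, of which 1 rose in 69CHAT, 2 rose in 82CHAT and 0 fell. GABRA5 encodes the alpha subunit of GABA-A receptors found mostly outside synapses, above all in hippocampus. Its brightest probe set read 193.2, 176.1 and 141.9 on the 69CHAT arrays, 201.3, 138.5 and 127.8 on the 82CHAT arrays, and 90.3, 72.2 and 76.4 on the WT arrays. All 6 arrays of the lines lay above all WT arrays, while the lines overlapped with each other. The log2 level was 7.40 ± 0.23 (SD, n = 3) in 69CHAT, 7.25 ± 0.35 in 82CHAT and 6.31 ± 0.17 in WT. GABRA5 was thus 2.13-fold higher in 69CHAT (log2 difference 1.09, SE 0.19, limma adjusted p = 0.0026) and 1.93-fold higher in 82CHAT (0.95, SE 0.19, adjusted p = 0.0056).

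GABRA5 had 3 probe sets, and their folds differed. The one with the plain suffix _at read 182.9, 285 and 344 in 69CHAT, 129.4, 185.1 and 238.9 in 82CHAT, and 29.4, 23.02 and 24.2 in WT, where all arrays were near background. By it GABRA5 was about 10.3-fold higher in 69CHAT (log2 difference 3.37, SE 0.27) and about 7.04-fold higher in 82CHAT (2.82, SE 0.27). The _s_at probe set gave 2.82-fold and 2.30-fold, also over WT signal near background. The brightest probe set carries the suffix _x_at, which marks probes that can match other transcripts, and it is the one with the smallest fold. The direction was the same in all 3, and each passed in both comparisons (largest adjusted p 0.0056). GABRG3, the protein-coding gene next to GABRA5 on chromosome 15 in RefSeq, encodes a gamma subunit and read 25.5 to 32.7 on every array.

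GABRA3, another alpha subunit gene, was near background throughout. It read 37.8, 38.1 and 35.8 in 69CHAT, 39.8, 46.2 and 39.8 in 82CHAT, and 36.8, 31.7 and 32.1 in WT. Its log2 difference was 0.32 in 82CHAT (SE 0.09, limma adjusted p = 0.034) and 0.15 in 69CHAT (SE 0.09, adjusted p = 0.29). The 82CHAT call was lost when any one of 5 arrays was left out (replicates 2 and 3 of 69CHAT, replicates 2 and 3 of WT, and replicate 2 of 82CHAT, limma adjusted p from 0.051 to 0.12) and when only the 82CHAT and WT arrays were fitted (0.069). GABRB2, a beta subunit gene named for the brightest signal of its class, read 170.9 to 204.2 in the lines and 157.1 to 173.6 in WT, with log2 differences of 0.14 and 0.15 (limma adjusted p = 0.325 and 0.26). The other 10 GABA-A genes, among them the rho subunits GABRR1 and GABRR2, did not pass in either comparison. With the replicate block GABRA2, near background on every array, and GABRP also passed in 82CHAT (limma adjusted p = 0.040 and 0.037). GABRP read 61.5, 50.1 and 46.1 in 82CHAT and was near background on all arrays of 69CHAT and WT.

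The GABA-B receptor needs both of its subunits: GABBR1 binds the transmitter and GABBR2 couples to the G protein. GABBR1 read 417.7, 317.4 and 272.2 in 69CHAT, 357.5, 291.8 and 249.1 in 82CHAT, and 499.2, 361.6 and 347.3 in WT. Within each replicate number WT was the highest, but the groups overlapped because replicate 1 was the highest array of every group. Its log2 difference was -0.27 (SE 0.21, adjusted p = 0.40) in 69CHAT and -0.42 (SE 0.21, 0.18) in 82CHAT, and with the replicate block it passed in both (limma adjusted p = 0.019 and 0.0025). GABBR2 read 96.3 to 116.5 by its brightest probe set on every array, with log2 differences of 0.00 and 0.02. This probe set carries the suffix _x_at, so it can read other transcripts too. Of the 4 probe sets of GABBR2 only the dimmest passed: it read 30.4 to 41.8 in the lines and 49.9, 58.9 and 57.2 in WT, a log2 difference of -0.62 (SE 0.14, adjusted p = 0.012) in 69CHAT and -0.56 (SE 0.14, 0.019) in 82CHAT.

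**Figure D2:**
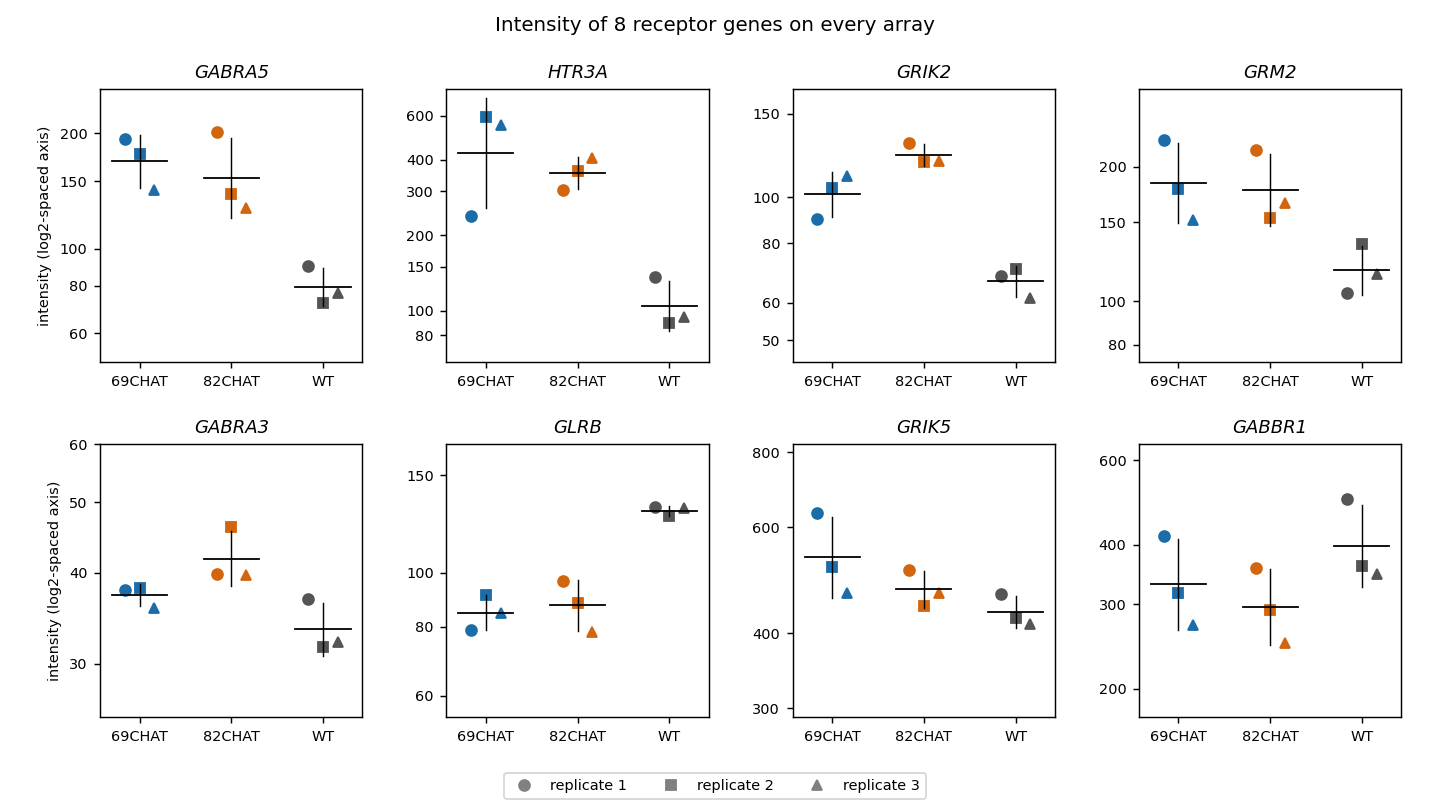
Points are the deposited intensities of 8 receptor genes on each array by their brightest probe sets, on a log2-spaced axis, with horizontal lines for the mean of the log2 values and vertical lines for 1 SD (n = 3). The lines and WT do not overlap for GABRA5, HTR3A, GRIK2, GRM2 and GLRB, and the GABBR1 panel shows replicate 1 highest in each group.

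Kainate receptors are tetramers, in which GRIK2 can form channels alone and GRIK5 only together with a subunit such as GRIK2. Of 5 kainate genes 1 passed, GRIK2, which was higher in both lines. It read 89.9, 104.6 and 111.1 in 69CHAT, 130.2, 118.7 and 119.3 in 82CHAT, and 68.3, 70.6 and 61.2 in WT. The 3 groups did not overlap in pairs, with 82CHAT the highest. GRIK2 was 1.52-fold higher in 69CHAT (log2 difference 0.61, SE 0.10, limma adjusted p = 0.0022) and 1.84-fold higher in 82CHAT (0.88, SE 0.10, 0.00027). A second probe set of GRIK2 read 15.9 to 17.7 on every array, at the bottom of the scale, and did not pass (adjusted p = 0.65 and 0.60).

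The brightest probe set of GRIK5 did not pass and its other one did. The brightest read 634.9, 514.9 and 467.1 in 69CHAT, 510.3, 443.5 and 467.1 in 82CHAT, and 464.9, 423.8 and 413.9 in WT. Its log2 difference was 0.30 in 69CHAT (SE 0.12, adjusted p = 0.11; 0.023 with the replicate block) and 0.12 in 82CHAT (SE 0.12, adjusted p = 0.48). The other probe set read 232, 266 and 235.5 in 69CHAT, 205.2, 234.8 and 210.4 in 82CHAT, and 142.2, 125.7 and 122.8 in WT. By it GRIK5 was 1.88-fold higher in 69CHAT (adjusted p = 0.00017) and 1.67-fold higher in 82CHAT (0.00058), with no overlap between the lines and WT. The brightest probe set carries the suffix _x_at, so its probes can match other transcripts. Which probe set reads GRIK5 alone is not known here. GRIK1, GRIK3 and GRIK4 did not pass.

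AMPA receptors carry most fast excitation in brain. None of the 4 AMPA genes passed, and GRIA1, GRIA2 and GRIA3 were near background on all 9 arrays. GRIA4 read 88.0, 82.0 and 81.7 in 69CHAT, 111.4, 91.7 and 77.4 in 82CHAT, and 80.4, 72.0 and 71.3 in WT. Replicate 1 was the highest array of each group, and 82CHAT overlapped with WT. The probe set had log2 differences of 0.17 and 0.31 (limma adjusted p = 0.39 and 0.11). With the replicate block the latter passed (adjusted p = 0.032).

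NMDA receptors need GRIN1 together with a GRIN2 subunit. None of the 5 NMDA genes passed. GRIN1 read 257.6, 161.6 and 158.6 in 69CHAT, 298.9, 161.6 and 146.9 in 82CHAT, and 183.7, 131.5 and 138.4 in WT, by a probe set with the suffix _x_at. Replicate 1 stood above the others in every group, and the spread within a group was larger than the difference between groups. The log2 differences were 0.33 (SE 0.29, adjusted p = 0.47) and 0.36 (SE 0.29, 0.41), and the block took the latter past the threshold (adjusted p = 0.041). GRIN2B, a subunit that binds glutamate, had differences of 0.34 and 0.36 (adjusted p = 0.23 and 0.19; 0.026 and 0.021 with the block). GRIN2C read 100.7 to 113.5 on all arrays, with differences of -0.07 and -0.04.

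Of 7 metabotropic glutamate receptor genes 1 passed. GRM2 encodes a receptor that lowers cyclic AMP and acts largely as a presynaptic brake. It read 229.6, 177.9 and 152.2 in 69CHAT, 218.1, 153.8 and 166.1 in 82CHAT, and 104.6, 134.4 and 115 in WT. All arrays of the lines lay above all WT arrays. GRM2 was 1.57-fold higher in 69CHAT (log2 difference 0.65, SE 0.18, limma adjusted p = 0.031) and 1.51-fold higher in 82CHAT (0.59, SE 0.18, 0.043). Its margin was narrow: the 69CHAT call was lost when any one of 4 arrays was left out (replicates 1 and 2 of 69CHAT, 1 and 3 of WT, adjusted p from 0.073 to 0.102), and the 82CHAT call when any one of 6 was (replicate 2 of 69CHAT, 1 and 3 of 82CHAT, and each WT array, from 0.0502 to 0.13). Of 22 alternatives, these arrays left out among them, 5 lost the 69CHAT call of GRM2 and 8 lost its 82CHAT call. GRM4 read 139.5 to 178.2 in every group, with a log2 difference of 0.00 in both comparisons.

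Glycine receptors are chloride channels in which GLRB anchors the complex to gephyrin at the synapse and a GLRA subunit completes the channel. GLRB was the gene that fell. It read 78.8, 91.1 and 84.7 in 69CHAT, 96.5, 88.2 and 78.3 in 82CHAT, and 131.4, 126.5 and 130.7 in WT. All 6 arrays of the lines lay below all WT arrays, and the lines overlapped. GLRB was 1.53-fold lower in 69CHAT (log2 difference -0.61, SE 0.10, adjusted p = 0.0015) and 1.48-fold lower in 82CHAT (-0.57, SE 0.10, 0.0023). Its second probe set gave -0.73 and -0.69 (adjusted p = 0.00041 and 0.00058) with all arrays near background. GLRA1 and GLRA3 were near background on all arrays, GLRA2 read 80.9 to 103 on them, and none of these 3 genes passed.

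Of the 5 genes that differed in both comparisons, GRIK2, GRM2 and GLRB had start sites in the RefSeq promoter table (GRCh38.p14), and the 250 bases before the first listed start are shown so that the genes that rose can be set beside the one that fell. They are written 5′ to 3′ on the gene's strand, and capitals mark GGGCGG or its reverse complement, the GC box.
GRIK2, chr6:101393458-101393707, + strand: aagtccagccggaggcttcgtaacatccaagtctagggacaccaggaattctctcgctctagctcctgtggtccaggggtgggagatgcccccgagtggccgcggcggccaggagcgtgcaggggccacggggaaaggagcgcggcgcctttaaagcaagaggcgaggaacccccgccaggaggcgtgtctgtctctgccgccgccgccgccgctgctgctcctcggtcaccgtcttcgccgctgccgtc
GRM2, chr3:51706818-51707067, + strand: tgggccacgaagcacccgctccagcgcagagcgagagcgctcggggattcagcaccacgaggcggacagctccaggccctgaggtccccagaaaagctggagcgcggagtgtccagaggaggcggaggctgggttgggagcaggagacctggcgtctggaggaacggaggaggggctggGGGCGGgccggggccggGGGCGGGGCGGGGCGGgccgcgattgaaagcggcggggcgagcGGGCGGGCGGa
GLRB, chr4:157075900-157076149, + strand: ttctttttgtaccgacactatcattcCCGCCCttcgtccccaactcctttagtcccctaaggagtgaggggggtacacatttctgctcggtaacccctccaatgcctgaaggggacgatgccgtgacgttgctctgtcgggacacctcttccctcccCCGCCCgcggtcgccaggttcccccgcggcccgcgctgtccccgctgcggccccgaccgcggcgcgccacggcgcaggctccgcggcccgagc
The GC content was 68.0%, 74.4% and 67.6% in this order. The GC box occurred 0 times before GRIK2, 6 times before GRM2, with overlapping matches, and 2 times before GLRB. Any bearing of this motif on the direction of change was not tested. The GC box was held by 42.6% of the 35116 windows of this length listed there. The E-box CACGTG, which MYC-type factors bind, the GATA motif AGATAA and the TATA motif TATAAA had 0 matches on either strand in these windows, and 6.34%, 9.17% and 10.7% of all windows held them. A match describes letters and not a bound site, and GRIK2 and GLRB have further starts in the table.

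**Figure D3:**
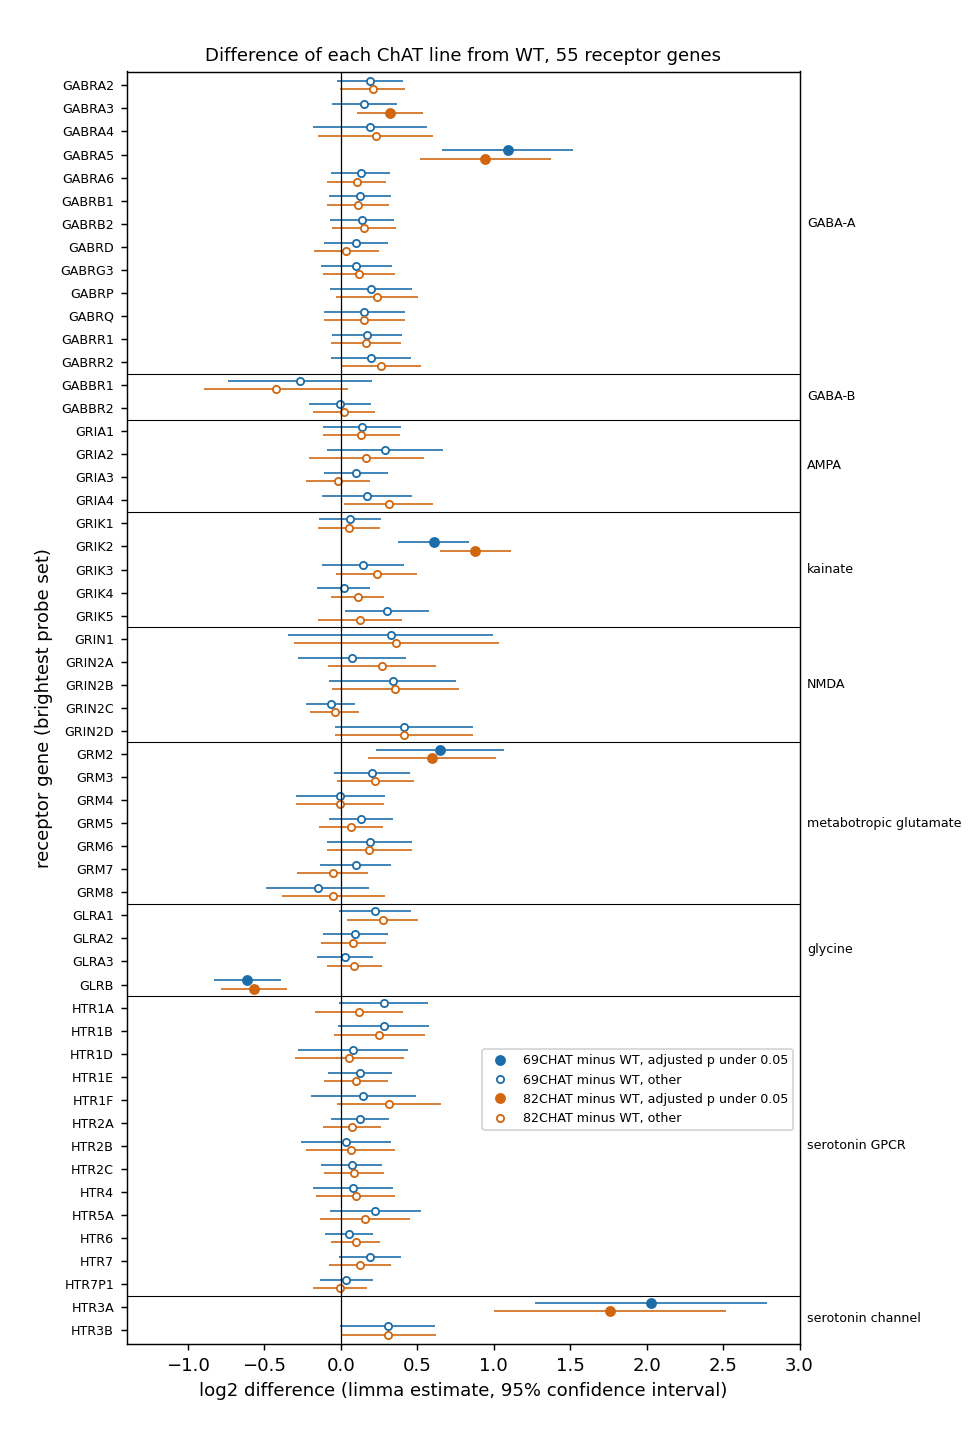
Circles are limma log2 differences of each line from WT for the 55 receptor genes with 95% confidence intervals, filled where the adjusted p was under 0.05, with genes ordered by receptor class. Filled circles stand for GABRA5, GRIK2, GRM2, GLRB and HTR3A in both lines and for GABRA3 in 82CHAT, and most intervals include 0.

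None of the 13 genes classed by symbol as serotonin receptors of the G-protein type, among them the pseudogene HTR7P1, passed in either comparison. HTR4, whose receptor raises cyclic AMP and which had the brightest probe set of the class, read 399.9, 350.3 and 334.5 in 69CHAT, 357.3, 411.3 and 330.2 in 82CHAT, and 372.7, 340.3 and 313 in WT. The groups overlapped fully, and the log2 differences were 0.08 (SE 0.11) and 0.10 (SE 0.11). The block took HTR1B past the threshold in 69CHAT (adjusted p = 0.041) and HTR1F in 82CHAT (0.046).

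HTR3A had the largest difference among the brightest probe sets of the receptor genes. It encodes the subunit without which the serotonin-gated cation channel does not form. HTR3A read 238.4, 591.6 and 552.1 in 69CHAT, 303, 362.3 and 407 in 82CHAT, and 136.1, 89.4 and 94.5 in WT. All arrays of the lines lay above all WT arrays, and replicate 1 was the lowest array of each line and the highest of WT. The log2 level was 8.74 ± 0.73 (SD, n = 3) in 69CHAT, 8.47 ± 0.21 in 82CHAT and 6.71 ± 0.33 in WT. HTR3A was 4.08-fold higher in 69CHAT (log2 difference 2.03, SE 0.33, limma adjusted p = 0.0020) and 3.39-fold higher in 82CHAT (1.76, SE 0.33, 0.0043). In replicates 2 and 3 alone the log2 differences were 2.64 and 2.06. The second probe set read 235.2, 510.8 and 531.8 in 69CHAT, 282.2, 379.9 and 442.4 in 82CHAT, and 97.5, 93.2 and 95.9 in WT, or 4.19-fold and 3.79-fold higher.

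HTR3B, the partner subunit encoded next to HTR3A on chromosome 11, read 81.0, 60.2 and 56.9 in 69CHAT, 71.6, 66.0 and 59.4 in 82CHAT, and 54.4, 52.5 and 51.4 in WT. The lines lay above WT, where all arrays were near background. Its log2 difference of 0.31 in both (SE 0.14) did not pass (limma adjusted p = 0.147 and 0.135) and passed with the block (0.042 and 0.038).

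**Figure D4:**
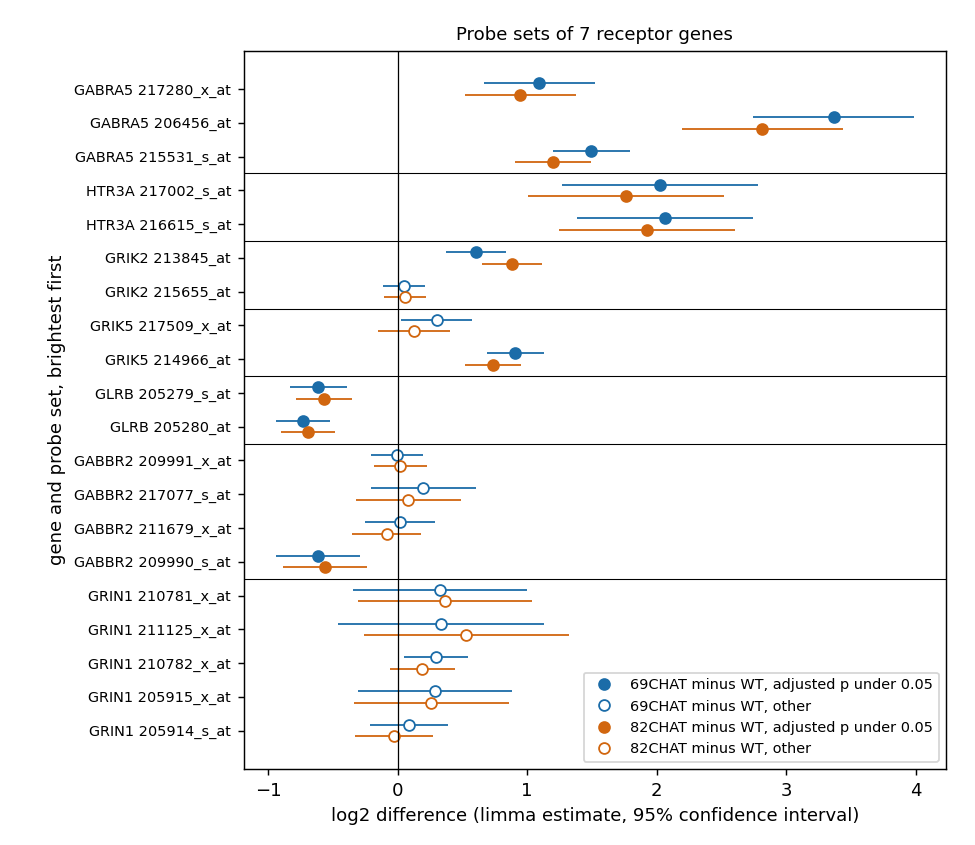
Circles are limma log2 differences from WT with 95% confidence intervals for every probe set of 7 receptor genes, brightest first within a gene. The probe sets of GABRA5, HTR3A and GLRB share a direction and all pass, while GRIK2, GRIK5 and GABBR2 each have probe sets that pass and probe sets that do not.

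Probe sets of one gene could be compared for 21 of the 55 genes. In each comparison with WT none of the probe sets passed for 15 of them, all passed in one direction for GABRA5, GLRB and HTR3A, and some did for GABBR2, GRIK2 and GRIK5. No gene had probe sets that passed in opposite directions. Counting a gene by any of its probe sets, 7 receptor genes passed in 69CHAT and 8 in 82CHAT, where 33% and 33.9% of all named genes passed by any of theirs.

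The lines were then compared with each other, which asks whether the larger form goes with other receptor levels than the smaller one. None of the 55 genes passed in 82CHAT against 69CHAT (limma, 0 higher and 0 lower), and neither did any of the 22215 probe sets (0%), although 733 had an unadjusted p under 0.05. CHAT, 3.93-fold higher in 82CHAT than in 69CHAT with no overlap of the arrays, did not pass either (limma adjusted p = 0.70). The lack of calls therefore does not show equal levels. Among the receptor genes only GRIK2 had an unadjusted p under 0.05 (0.026, log2 difference 0.27, 95% interval 0.04 to 0.51). The arrays of the lines did not overlap for 2 receptor genes, GABRA3 and GRIK2, where 6.87% of all named genes did not. The interval stayed inside a 2-fold difference for 54 of the 55 genes. The exception was HTR3A, at -0.27 (interval -1.02 to 0.49), so a difference of about that size was not resolved. For GABRA5 the interval was -0.57 to 0.28, for GRM2 -0.47 to 0.37 and for GLRB -0.17 to 0.26. In replicates 2 and 3 alone HTR3A was lower in 82CHAT than in 69CHAT (log2 difference -0.57, limma adjusted p = 0.027), where 1.32% of all named genes were lower and 1.13% higher. Its replicate 1 arrays stood the other way round, 303 against 238.4, and its second probe set did not pass there (-0.35, adjusted p = 0.14).

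Replicate 1 was the highest of its group's 3 arrays for 41 of the 55 receptor genes in 69CHAT, 47 in 82CHAT and 37 in WT, or 74.5%, 85.5% and 67.3%, beside 50.6%, 48.1% and 45.1% of all named genes. HTR3A and GRIK2 in 69CHAT were among those with replicate 1 lowest.

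Genes that make, move or anchor at these receptors were counted from a list chosen by their known roles. Each was read by its brightest probe set, and whether other probe sets of the same gene, where present, agree is not given here. Of 64 measured, 9 were higher and 10 lower in 69CHAT, and 9 were higher and 11 lower in 82CHAT, with median log2 differences of 0.06 and 0.08. These are 29.7% and 31.2% of the list, near the 29.4% and 30.3% of all named genes. Of 12 genes for transmitter synthesis and breakdown 1 was higher and 2 lower in each line. GAD1, which makes GABA, read 50.9 to 66.4 in the lines and 123.7 to 151.6 in WT, 2.36-fold and 2.38-fold lower (limma adjusted p = 0.00016 and 0.00015). ALDH5A1, which takes part in GABA breakdown, read 133.8 to 192.9 and 573.9 to 627.9, 3.57-fold and 3.93-fold lower (1.9e-05 and 1.3e-05). Of 16 transporters 1 was higher and 1 lower in 69CHAT, and 0 and 1 in 82CHAT.

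Of 36 scaffolds and auxiliary subunits 7 were higher and 7 lower in 69CHAT, and 8 and 8 in 82CHAT. S100A10, a partner of annexin A2 that also binds some serotonin receptors, read 137.7 to 161.6 in the lines and 2603 to 3795 in WT, 20.5-fold and 21.1-fold lower (limma adjusted p = 1.8e-07 and 1.6e-07). GABARAPL1, a relative of a GABA-A receptor-binding protein that works mainly in autophagy, was 3.30-fold and 3.66-fold lower. SHANK2, a scaffold of excitatory synapses, read 105.3 to 165.7 in the lines and 34.3 to 47.5, near background, in WT, about 3.35-fold and 3.59-fold higher (0.00013 and 9.2e-05).

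**Figure D5:**
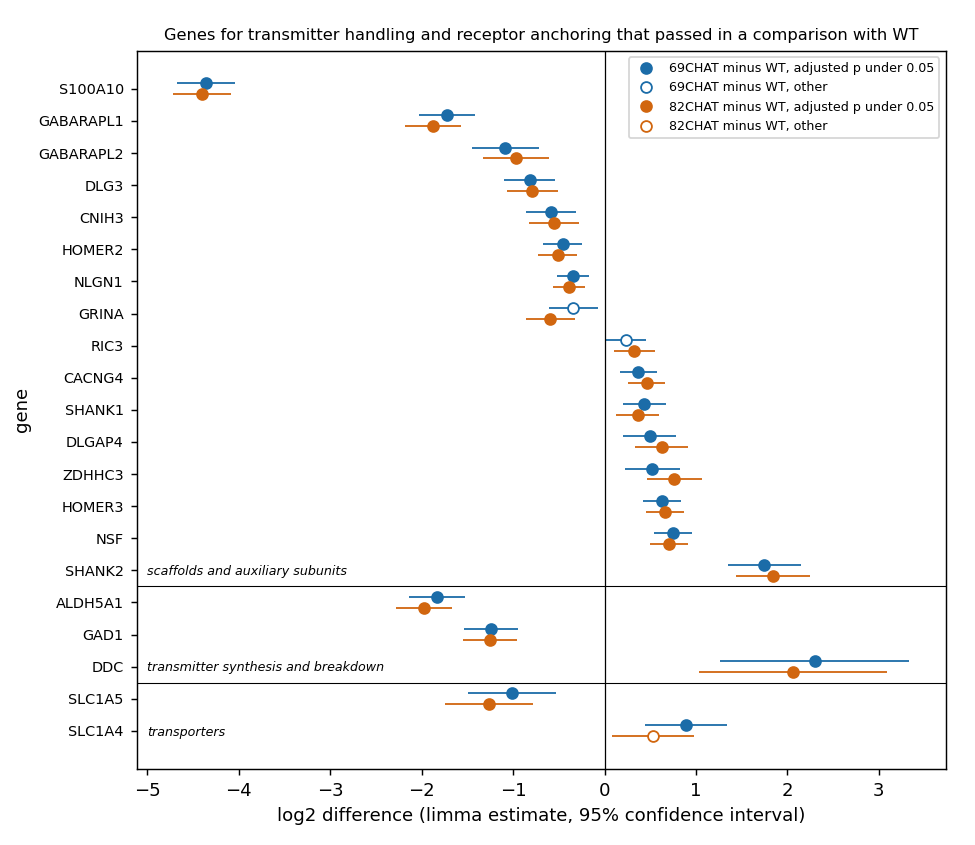
Circles are limma log2 differences from WT with 95% confidence intervals for the 21 of 64 genes for transmitter handling and receptor anchoring that passed in at least 1 comparison. S100A10 is the lowest at -4.36 and -4.40, and the lines lie close to each other for each gene.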

How the data were processed

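The authors deposited 1 linear intensity per probe set and array (14.9 to 21490, medians by array 133.7 to 142.6). Per the submitters' processing notes these come from RMA, a method that corrects background, normalizes between arrays and combines each probe set's probes. The RMA version and the step from log2 to linear values are not given in these sources. Precision is limited by the 3 arrays per group.

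Groups and replicate numbers came from the sample titles. Of 22283 probe sets, 68 controls were left out, and the other 22215 entered on the log2 scale, unfiltered and with no pseudocount, in a fit by limma 3.58.1 (R 4.3.3; 3 group means, 9 arrays, eBayes, two-sided). A platform annotation gave 19065 of them 1 symbol, 1043 several and 2107 none. An adjusted p under 0.05 was called. The fit was tested on simulated data. Deviations from group means correlated at 0.28 to 0.57 in the 9 same-numbered pairs of arrays of different groups, and at -0.59 to 0.48 in the 18 others. The replicate number was therefore tried as a block, although only replicate 1 stood apart: between replicates 2 and 3, arrays of unlike number correlated at 0.21 to 0.48. p-values measure only the spread between these arrays.

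Named were receptor genes that passed in any comparison, the brightest gene of each class, their disagreeing probe sets, and up to 5 associated genes per comparison. Others (GABBR2, GABRG3, GRIN2C, GRM4, HTR3B and those past the threshold with the block) were chosen after their values were seen. The members, lists and alternatives were chosen with earlier results of these data known. The alternatives were other scaling, a pseudocount, a dim filter, other probe sets, other variance models, array weights, subsets of arrays and a stricter threshold.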

Additional observations from a re-analysis of the deposited data

How the results depend on the processing

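The calls of GABRA5, GLRB and HTR3A were kept in every alternative that could be run, with limma adjusted p up to 0.026, 0.011 and 0.021. Among the alternatives that kept its probe set or took another of its own, GRIK2 lost its call only with the second brightest. No named gene changed direction. The replicate block gave 8 higher and 2 lower in 69CHAT against WT and 12 and 2 in 82CHAT against WT, and called 0 between the lines. Replicates 2 and 3 alone gave 10 higher in the first, 9 higher and 2 lower in the second, and 1 lower in 82CHAT against 69CHAT. Array weights gave 9 higher in the first (21.4% of all named genes), 13 higher and 2 lower in the second (21.9% and 25%), and 1 higher and 1 lower between the lines (4.05% and 4.76%), the gene-by-gene weights being chosen after limma's default was seen not to converge. Keeping only probe sets above their array's median on at least 3 arrays, a stricter line than 55.9, left 11 of 55 genes. It gave 3 higher in 82CHAT and 0 lower in either line. GLRB, GRIK2 and GABRA3 were not tested there, as they read below the lowest array median, 133.7, on all 9 arrays. An adjusted p under 0.01 left 3 higher in 82CHAT. The probe set of largest variance gave 2 lower in each line, as did counting any probe set, an alternative added after seeing the data. Leaving out 1 array at a time gave 3 to 5 higher and 1 lower in 69CHAT, 3 to 7 higher and 1 lower in 82CHAT, and 0 between the lines, with 3 in 82CHAT without 69CHAT replicate 2, WT replicate 2 or WT replicate 3. The cause of these moves was not tested. For the dim filter, the stricter threshold, the probe set of largest variance and the arrays left out, no share of all named genes is given. Whether those moves are particular to the receptor genes is therefore not known here. Signal near background limits what can be seen for 18 genes.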

Other observations

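Beyond the genes given above, 3 of the associated genes were chosen after their values were seen, 1 for transmitter synthesis and 2 carriers of amino acids. DDC, which makes serotonin and dopamine from their precursors, read 188.5, 662.4 and 699 in 69CHAT, 510.7, 322.2 and 325 in 82CHAT, and 92.6, 85.9 and 92.2 in WT. It was 4.92-fold and 4.18-fold higher in the lines (limma adjusted p = 0.0053 and 0.0092). Its replicate 1 array was the lowest of 69CHAT, as for HTR3A, and the highest of 82CHAT, unlike HTR3A. In replicates 2 and 3 alone DDC was higher than in WT by 2.93 in 69CHAT and 1.86 in 82CHAT on the log2 scale, and lower in 82CHAT than in 69CHAT (log2 difference -1.07, limma adjusted p = 0.0019). SLC1A5, which carries glutamine, was 2.02-fold lower in 69CHAT and 2.40-fold lower in 82CHAT (adjusted p = 0.0073 and 0.0023). SLC1A4, a carrier of small neutral amino acids, was 1.86-fold higher in 69CHAT (adjusted p = 0.0092) and 0.53 higher on the log2 scale in 82CHAT, which did not pass (0.082) but did in replicates 2 and 3 alone (0.46, limma adjusted p = 0.0011).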
